A study of Mus musculus with 200 samples.

Results

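The 10 genes described here, all of the pancreatic islet, were followed through 200 single medullary thymic epithelial cells. They were taken as fixed rows of the deposited table of 38406 genes, by name: the hormones Iapp, Ins1, Ins2, Gcg, Sst and Ppy, the granule protein Chga, and the beta-cell antigens Ptprn, G6pc2 and Slc30a8. All 10 have a row, and 9 had at least 1 count in some cell. Each sample of the study is 1 cell of the thymus of a female B6xNOD mouse of age 5 weeks, sorted as CD45-, Ly51- and MHCII+. All mice carried an Aire-GFP transgene that marks Aire expression, and the knockout (KO) mice lacked Aire while the wild-type (WT) mice had it. The 4 groups were 48 KO cells with high GFP (KO GFPhi), 61 WT GFPhi cells, 52 KO cells with low GFP (KO GFPlo) and 39 WT GFPlo cells. The labels name neither animals nor the deleted part of Aire, so a group is 1 sample here: values carry counting intervals but no test, and variation from animal to animal is unknown.

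Medullary thymic epithelial cells transcribe genes of many peripheral tissues in small numbers of cells and present the products to developing T cells, which removes or diverts T cells that would attack those tissues. Aire, a nuclear protein, is needed for much of this expression, and insulin 2 is the textbook islet antigen made in the thymus. Islet hormones and granule proteins are also the antigens against which T cells and antibodies turn in type 1 diabetes of humans and NOD mice.

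Depth and identity set the frame for all values. Group sums were 3011900 counts in KO GFPhi, 3468109 in WT GFPhi, 1847240 in KO GFPlo and 2260672 in WT GFPlo cells, and totals per cell ran from 2429 to 370365. Levels below are in CPM, a gene's summed counts scaled to the summed counts of its group, and carry an exact Poisson 95% interval, which covers the counting error of sequenced tags only. The sorted cell type was checked against its markers. Cd74 and H2-Aa, genes of the MHCII pathway on which the cells were sorted, were counted in all 200 cells. Krt8 was counted in 48 of 48 KO GFPhi, 61 of 61 WT GFPhi, 49 of 52 KO GFPlo and 37 of 39 WT GFPlo cells. Epcam was counted in fewer, in 42 of 48 KO GFPhi, 52 of 61 WT GFPhi, 36 of 52 KO GFPlo and 32 of 39 WT GFPlo cells. Cells with more counts from 24 leukocyte genes than from 12 epithelial genes are called leukocyte-marked here and numbered 3 in KO GFPhi, 15 in WT GFPhi, 19 in KO GFPlo and 5 in WT GFPlo. Aire transcripts, primed with oligo-dT, were at 815 CPM (783–848) in KO GFPhi against 537 (512–562) in WT GFPhi cells, and at 316 (291–342) in KO GFPlo against 244 (224–265) in WT GFPlo cells. With the deleted part not given, this level checks nothing about the genotype.

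Cells that shared a primer were not independent, which bears on every rare gene. The labels give each cell 1 of 30 primers, each primer served in more than 1 of the 12 library pools, and each was used for cells of 1 group only, with 8 primers in KO GFPhi, 8 in WT GFPhi, 8 in KO GFPlo and 6 in WT GFPlo. Primer and group can therefore not be told apart. Among genes counted in exactly 2 cells of the table, both cells used the same primer in 405 of 733 pairs of the same sort date and different pools (55.3%), against 313 of 8780 such pairs over all cells (3.56%). Within a group the share was 83.3%, against 13.5%. Between the 2 sort dates it was 42 of 369 pairs (11.4%), against 301 of 9216 (3.27%). For this reason many results are also given by primer or by unit, a unit being all cells of 1 primer on 1 date. There were 11 units in KO GFPhi, 16 in WT GFPhi, 15 in KO GFPlo and 12 in WT GFPlo cells.

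The start regions of 4 members are shown, since Iapp and Ppy were counted in WT cells only, Gcg had most of its counts in WT GFPhi cells, and Chga was counted in all 4 groups. Each sequence is the RefSeq promoter on GRCm38.p6, from 250 bases before to 50 after the start site, given 5′ to 3′ on the gene's strand, with the motif TATAAA or its reverse complement TTTATA in capitals. RefSeq entries were matched for 8 of the 10 members.
Iapp, chr6:142298175-142298474, plus strand: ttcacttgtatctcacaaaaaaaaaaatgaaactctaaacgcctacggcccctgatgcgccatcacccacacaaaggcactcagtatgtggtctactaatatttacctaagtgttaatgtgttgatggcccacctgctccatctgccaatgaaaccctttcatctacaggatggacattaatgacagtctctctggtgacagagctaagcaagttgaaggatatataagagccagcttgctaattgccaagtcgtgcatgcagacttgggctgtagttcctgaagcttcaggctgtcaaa
Gcg, chr2:62483604-62483903, minus strand: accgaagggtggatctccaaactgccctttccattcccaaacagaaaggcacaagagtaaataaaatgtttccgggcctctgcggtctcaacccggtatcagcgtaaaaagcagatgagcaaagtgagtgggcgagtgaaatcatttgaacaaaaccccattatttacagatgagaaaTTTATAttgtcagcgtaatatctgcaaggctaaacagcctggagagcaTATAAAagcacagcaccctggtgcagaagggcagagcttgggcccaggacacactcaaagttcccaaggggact
Ppy, chr11:102101270-102101569, minus strand: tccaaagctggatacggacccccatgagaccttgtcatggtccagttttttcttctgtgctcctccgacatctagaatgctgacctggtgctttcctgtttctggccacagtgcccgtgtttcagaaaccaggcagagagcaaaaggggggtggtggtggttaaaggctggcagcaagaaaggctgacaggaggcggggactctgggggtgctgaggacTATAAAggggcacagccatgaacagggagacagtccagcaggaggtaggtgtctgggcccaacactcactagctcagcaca
Chga, chr12:102554691-102554990, plus strand: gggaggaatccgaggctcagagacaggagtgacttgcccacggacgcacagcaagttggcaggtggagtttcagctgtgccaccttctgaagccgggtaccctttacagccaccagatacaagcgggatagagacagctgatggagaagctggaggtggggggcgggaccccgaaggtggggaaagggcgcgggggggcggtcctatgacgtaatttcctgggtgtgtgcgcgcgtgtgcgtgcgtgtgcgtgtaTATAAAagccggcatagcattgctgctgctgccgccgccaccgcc
TATAAA on either strand occurred in 13.6% of all 32851 promoters of this length and in the windows of Gcg, Ppy and Chga, but not in that of Iapp. Only these exact letters were searched, and the Iapp window holds the close variant TATATAAG. On the gene's strand the match began at -24 from the start site in Gcg and -31 in Ppy. In Chga it began at 5, after the start site. The dinucleotide CG occurred 4 times in the Iapp, 7 times in the Gcg, 4 times in the Ppy and 21 times in the Chga window, where the median promoter has 7. The E-box pattern CANNTG, found in 72.3% of promoters, occurred 3 times each in Iapp, Gcg and Chga and 0 times in Ppy. The homeodomain core TAAT, found in 58%, occurred 5 times in Iapp, 2 times in Gcg, 1 time in Chga and 0 times in Ppy. These are letter matches in 1 window, with no binding measured.

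At least 1 member was counted in 69 of the 200 cells. These were 13 of 48 KO GFPhi cells (27.1%, exact binomial 95% interval 15.3–41.8) against 29 of 61 WT GFPhi cells (47.5%, 34.6–60.7). In the low gate they were 13 of 52 KO GFPlo cells (25%, 14–38.9) against 14 of 39 WT GFPlo cells (35.9%, 21.2–52.8). Intervals of the KO and WT shares overlapped in both gates. When every cell was thinned to 10000 counts, leaving out 4 KO GFPhi, 6 WT GFPhi, 4 KO GFPlo and 7 WT GFPlo cells, the expected shares were 13% of KO GFPhi against 35.8% of WT GFPhi cells and 15.8% of KO GFPlo against 28.8% of WT GFPlo cells. Counted by units, 8 of 11 KO GFPhi and 12 of 16 WT GFPhi units held a member, as did 9 of 15 KO GFPlo and 6 of 12 WT GFPlo units, so in the low gate the order of KO and WT turned round. Chga alone accounted for most KO cells: any of the other 9 members was counted in 3 of 48 KO GFPhi cells (6.25%, 1.31–17.2) against 22 of 61 WT GFPhi cells (36.1%, 24.2–49.4), and in 5 of 52 KO GFPlo cells (9.62%, 3.20–21) against 11 of 39 WT GFPlo cells (28.2%, 15–44.9).

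**Figure D1:**
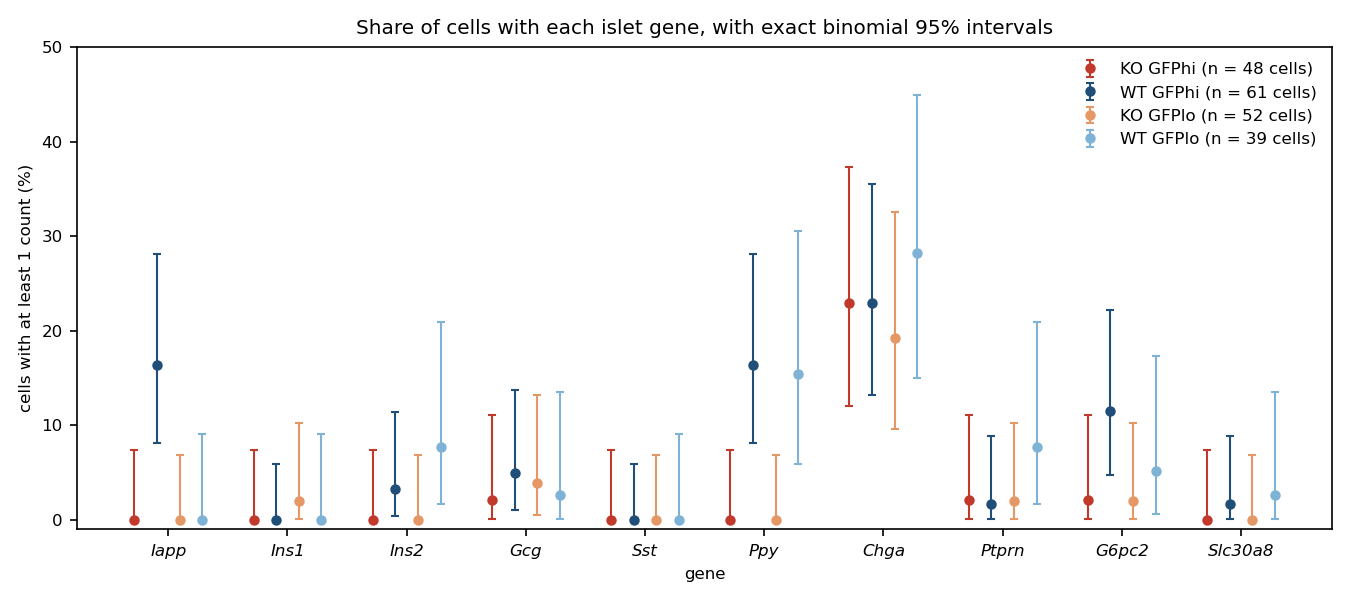
Share of cells, in percent, with at least 1 count of each gene in KO GFPhi, WT GFPhi, KO GFPlo and WT GFPlo cells; points are shares and bars exact binomial 95% intervals. Iapp stands above 0 in WT GFPhi cells alone (16.4%), Ppy in both WT groups, and Chga at 19.2% to 28.2% in all 4 groups.

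Iapp, the amyloid polypeptide that beta cells secrete with insulin and a target of diabetogenic CD4+ T cells in NOD mice, was counted in WT GFPhi cells only. KO GFPhi, KO GFPlo and WT GFPlo cells had 0 counts, and WT GFPhi cells had 246, a level of 70.9 CPM (62.3–80.4) in 10 of 61 cells (16.4%, 8.15–28.1). With the KO GFPhi sum set at 3 counts, the level there was at least 71.2-fold lower than in WT GFPhi cells. The 0 of 48 KO GFPhi cells allow a share of cells with a count of up to 6.25% at the 3-count floor and 7.40% at the exact binomial upper limit, and do not limit the share of cells that express the gene below detection. Within the 10 positive cells the counts ran from 1 to 100 with a median of 3, and the cell with 100 counts held 1768 CPM of Iapp. The group level thus rested on few cells, with 40.7% of the counts in 1 of them.

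The Iapp cells used only 2 of the 8 WT GFPhi primers. With primer ls_6, 7 of 8 cells were positive, with 57, 1 and 3 counts in pools 4, 5 and 6 of the first date and 20, 3, 1 and 1 counts in pools 8, 9, 10 and 11 of the second. With primer ls_14, 3 of 8 cells were positive, with 1, 59 and 100 counts in pools 10, 11 and 12 of the second date. These are 3 of 16 WT GFPhi units, against 0 of 11 KO GFPhi, 0 of 15 KO GFPlo and 0 of 12 WT GFPlo units. All 4 cells with 1 or 2 counts shared primer and date with a cell of at least 20 counts, whereas 83 cells at 0, 47 of them KO, lay in the pools of those high cells. The 47 cells with umi primers, 14 of them WT GFPhi, had 0 counts of Iapp. Leaving out each of the 30 primers in turn gave log2 ratios of KO over WT in GFPhi cells from -9.16 to -7.40. With 0 counts in KO and the WT counts on 2 primers, no such omission could have turned the direction round.

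Iapp spans chromosome 6, 142298423 to 142303961 on the plus strand (mm10, GENCODE M21), and overlaps the minus-strand transporter gene Slco1a5, whose 101 counts fell in 21 cells, 6 of them Iapp cells. Whether counting used the strand is not given in the sources used here, so reads of the overlap cannot be assigned with certainty. Of 9274 genes counted in 10 or more WT GFPhi cells, 3 (0.0323%) were at 0 in every other cell of the table: Iapp and, chosen after their values were seen, the tyrosine phosphatase genes Ptpn5 with 14 cells and Ptpru with 10. Among the 160 such genes counted in at most 10% of all cells the share was 1.88%. The cut-off of 10 cells and the pattern were taken from Iapp itself, so Iapp is in this set by construction.

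**Figure D2:**
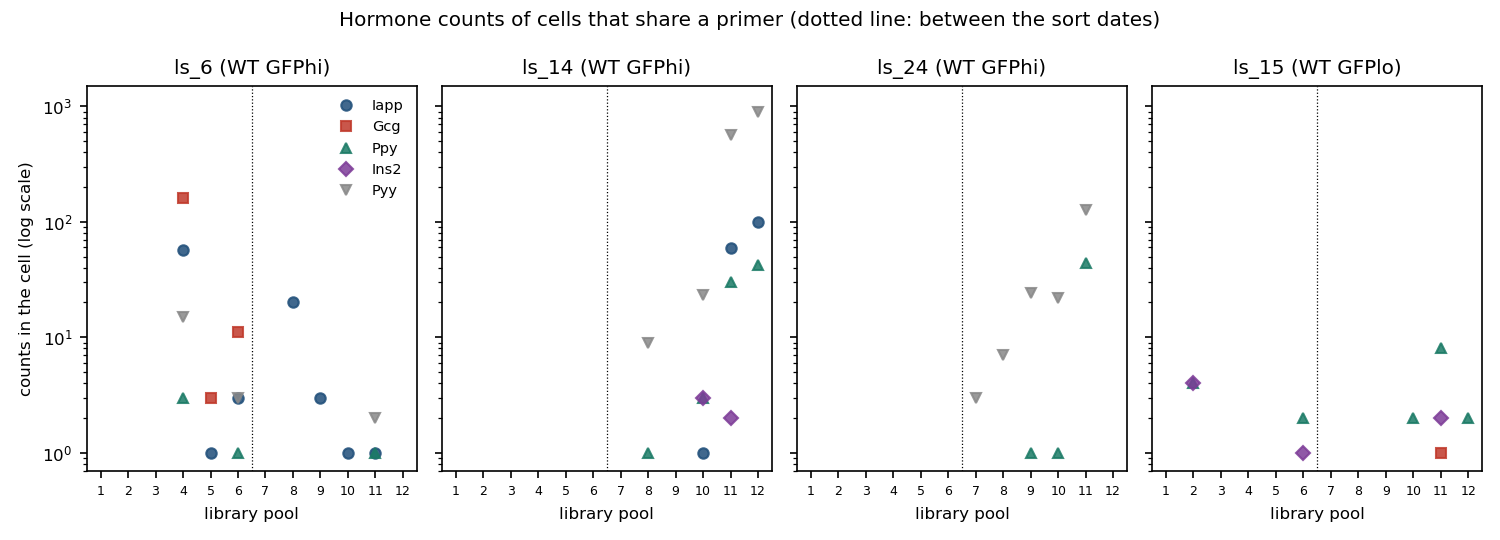
Counts per cell (log scale) of Iapp, Gcg, Ppy, Ins2 and the neighbouring hormone gene Pyy in cells of 3 WT GFPhi primers and 1 WT GFPlo primer across the 12 library pools, with a dotted line between the sort dates; each point is 1 cell and cells at 0 are not drawn. Cells that share a primer share genes: ls_6 holds Iapp in 7 pools and all high Gcg, and ls_14 holds Iapp, Ppy and Pyy together on the second date.

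Ppy encodes pancreatic polypeptide, the hormone of islet PP cells. It was counted in 0 of 100 KO and 16 of 100 WT cells, as 0 counts in KO GFPhi against 127 in WT GFPhi (36.6 CPM, 30.5–43.6), and 0 in KO GFPlo against 19 in WT GFPlo cells (8.40 CPM, 5.06–13.1). With KO set at 3 counts, Ppy was 36.8-fold lower in KO GFPhi and 5.18-fold lower in KO GFPlo cells. At the exact 95% limit it was at least 29.5-fold lower in KO GFPhi and 3.81-fold lower in KO GFPlo cells. Positive cells had a median of 2 counts, and the 3 highest had 44, 42 and 30. Ppy fell on 5 primers, in 4 of 16 WT GFPhi and 3 of 12 WT GFPlo units, against 0 of 11 KO GFPhi and 0 of 15 KO GFPlo units. By date, WT GFPhi cells had 4 counts on the first and 123 on the second. Of the 19 WT GFPlo counts, 94.7% carried primer ls_15, and 1 count remained without it. Of 9169 genes counted in 16 or more WT cells, 3 (0.0327%) were at 0 in all KO cells: Ppy and, chosen after their values were seen, Rnf166 and Sytl1. Among the 29 of these genes counted in at most 10% of cells the share was 6.9%. The cut-off of 16 cells and the pattern were taken from Ppy itself, so Ppy is in this set by construction.

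Pyy, which encodes the related gut hormone peptide YY, lies 5357 bases from Ppy on chromosome 11. It was counted in 15 cells, 10 of which were Ppy cells, which is 62.5% of the Ppy cells and 66.7% of the Pyy cells. All 10 were WT GFPhi. With primer ls_14, Pyy had 9, 23, 561 and 900 counts in pools 8, 10, 11 and 12, beside 1, 3, 30 and 42 counts of Ppy. With primer ls_24, Pyy had 24, 22 and 126 counts in pools 9, 10 and 11, beside 1, 1 and 44 of Ppy. The WT GFPlo cells with Ppy had no Pyy.

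Gcg encodes proglucagon, which alpha cells process to glucagon. It had 1 count in KO GFPhi cells (0.332 CPM, 0.00841–1.85) against 174 in WT GFPhi cells (50.2 CPM, 43–58.2), a level 151-fold lower in KO (26.8–6002, exact conditional binomial 95% interval). In the low gate it had 4 counts in 2 KO GFPlo cells against 1 count in 1 WT GFPlo cell. The WT GFPhi level came from 3 cells of the first date, with 160, 11 and 3 counts, all with primer ls_6. No WT GFPhi cell of the second date had Gcg, where KO GFPhi cells had 1 count, so the difference turned round there. It also turned round without primer ls_6, at a log2 ratio of 1.52.

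The insulin genes were near the limit of detection. Ins2, the insulin gene that mouse thymus is known to transcribe, had 0 counts in KO GFPhi against 5 counts in 2 WT GFPhi cells, and 0 in KO GFPlo against 7 counts in 3 WT GFPlo cells. Over both gates this was 0 of 100 KO and 5 of 100 WT cells (5.00%, 1.64–11.3), and at least 3.39-fold lower in KO. Of the 653 genes counted in exactly 5 cells of the table, 82 (12.6%) had no KO cell. The 5 cells used 2 primers: ls_14, with 3 and 2 counts in pools 10 and 11, and ls_15, with 4, 1 and 2 counts in pools 2, 6 and 11. All 5 also had Ppy, 31.2% of the Ppy cells. In GENCODE M21 the Ins2 gene spans 64726 bases of chromosome 7, so that its counts may not all be insulin mRNA. The adjacent growth factor gene Igf2 had 10, 6 and 18 counts in the 3 WT GFPlo cells with Ins2. Ins1, the second mouse insulin gene, had 1 count in 1 KO GFPlo cell and 0 elsewhere. The 2 genes are near-identical, so the counting could have split or dropped their reads. Sst, the somatostatin of delta cells, had 0 counts in all 200 cells, for which the exact binomial upper limits of the share of cells with a count are 7.40% in KO GFPhi, 5.87% in WT GFPhi, 6.85% in KO GFPlo and 9.03% in WT GFPlo cells.

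Chga encodes chromogranin A, a granule protein of endocrine cells that NOD T cells recognise, and was the most widely counted member. It was found in 11 of 48 KO GFPhi cells (22.9%, 12–37.3) against 14 of 61 WT GFPhi cells (23%, 13.2–35.5), and in 10 of 52 KO GFPlo cells (19.2%, 9.63–32.5) against 11 of 39 WT GFPlo cells (28.2%, 15–44.9). Its level was 34.9 CPM (28.5–42.2) in KO GFPhi against 35.8 (29.7–42.6) in WT GFPhi cells, a ratio of 0.975 (0.745–1.27). Without leukocyte-marked cells the ratio was 0.666 (0.508–0.872). In the low gate it was 17.9 CPM (12.3–25.1) in KO against 56.6 (47.2–67.3) in WT cells, a ratio of 0.316 (0.208–0.466). That low-gate difference rested on 1 WT GFPlo cell with 83 of 128 counts. Without its primer, ls_16, the log2 ratio was -0.29 instead of -1.65, and with only the deepest cell of each unit it was 0.25. Chga was spread over 18 primers, with 36 counts as its highest KO cell and 34 as its highest WT GFPhi cell. More cells held it on the first date (4 of 9 KO GFPhi, 9 of 23 WT GFPhi, 7 of 22 KO GFPlo and 8 of 18 WT GFPlo cells) than on the second (7 of 39 KO GFPhi, 5 of 38 WT GFPhi, 3 of 30 KO GFPlo and 3 of 21 WT GFPlo cells).

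The 3 beta-cell antigens other than hormones differed among themselves. G6pc2, the islet glucose-6-phosphatase subunit known as IGRP and a CD8+ T cell target in NOD mice, had 1 count in KO GFPhi against 42 counts in 7 WT GFPhi cells, 36.5-fold lower in KO (6.20–1475). On the first date there was 1 count in KO GFPhi against 41 in WT GFPhi cells, and on the second 0 in KO GFPhi against 1 in WT GFPhi cells. In the low gate it had 1 count in KO GFPlo against 2 in WT GFPlo cells. Primer ls_23 carried 78.3% of all G6pc2 counts, with 3, 25 and 8 counts in pools 3, 5 and 6. Without it the log2 ratio in GFPhi cells was -2.33 instead of -4.62. The cells with 25 and 8 counts were leukocyte-marked, and without all leukocyte-marked cells there was 1 count in KO GFPhi against 9 in WT GFPhi cells, 11.6-fold lower in KO GFPhi (1.61–510). Ptprn encodes the granule phosphatase-like protein IA-2, a main target of autoantibodies in human type 1 diabetes. It had 6 counts in 1 KO GFPhi cell against 5 counts in 1 WT GFPhi cell, and 19 counts in 1 KO GFPlo cell against 47 counts in 3 WT GFPlo cells (32, 14 and 1 counts, all with primer ls_8). Its low-gate ratio of 0.495 (0.274–0.859) turned round without that primer. Slc30a8, the zinc transporter ZnT8 of insulin granules, had 0 counts in KO cells against 1 count in WT GFPhi cells and 2 counts in WT GFPlo cells, too few for a comparison.

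Members met in the same cells. Of the 69 positive cells, 47 had 1 member, 14 had 2, 3 had 3 and 5 had 4. No KO cell had more than 2 members, and the 5 cells with 4 were 4 WT GFPhi cells and 1 WT GFPlo cell. With primer ls_6, 2 cells had 4 members: the pool 4 cell held Iapp, Gcg, Ppy and Chga at 57, 160, 3 and 3 counts, and the pool 6 cell held Iapp, Gcg, Ppy and G6pc2 at 3, 11, 1 and 1 counts. With primer ls_14, the pool 10 and 11 cells held Iapp, Ins2, Ppy and Chga. The fifth, with ls_15 in pool 11, held Ins2, Gcg, Ppy and Chga at 2, 1, 8 and 4 counts. Hormones of distinct islet cell types thus stood side by side in single libraries. Iapp and Ppy shared 6 cells, out of 10 with Iapp and 16 with Ppy, and all 3 WT GFPhi cells with Gcg had Iapp. Because these cells share primers, the overlaps are not independent events.

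**Figure D3:**
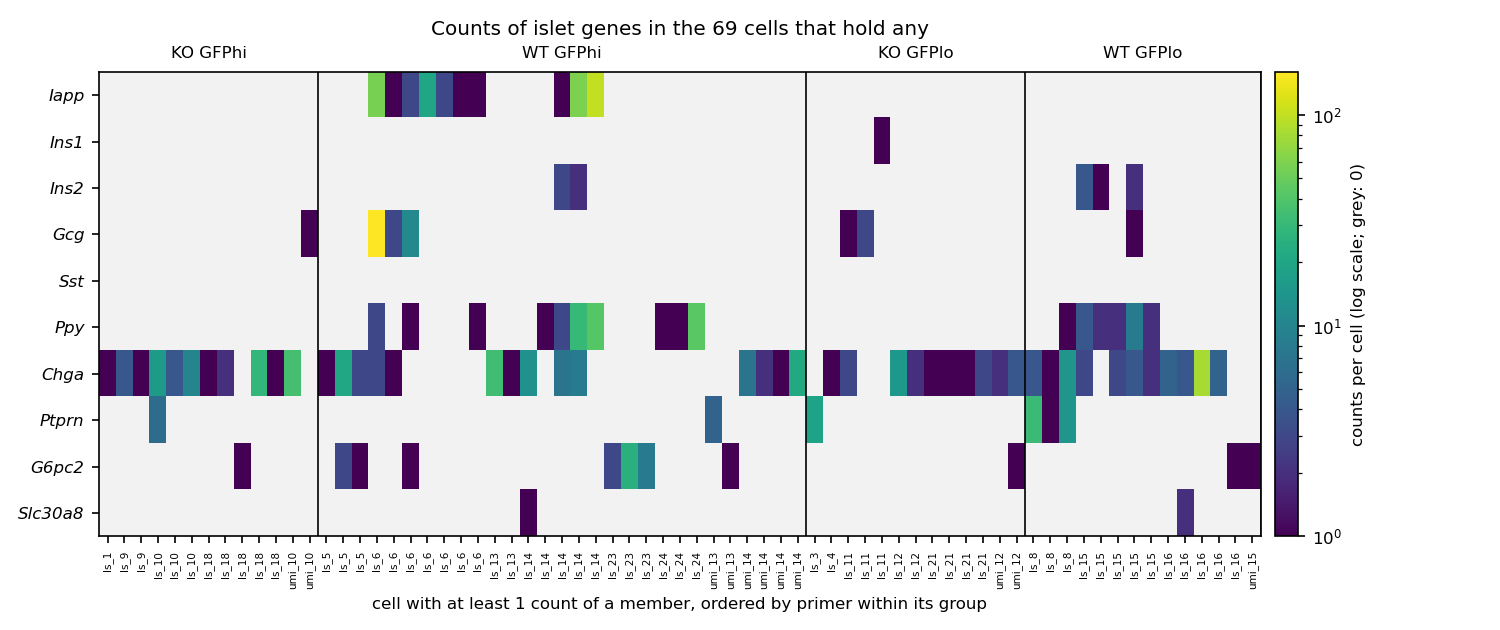
Counts per cell (colour, log scale, grey for 0) of the 10 genes in the 69 cells with any count, in columns ordered by group (KO GFPhi, WT GFPhi, KO GFPlo, WT GFPlo) and by primer within a group. KO columns hold mostly Chga, and the cells with 4 members carry primers ls_6, ls_14 and ls_15.

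As a set, the 10 members summed to 113 counts in KO GFPhi (37.5 CPM, 30.9–45.1) against 724 in WT GFPhi cells (209 CPM, 194–225), 5.56-fold lower in KO (4.56–6.85). In the low gate they summed to 58 counts in KO (31.4 CPM, 23.8–40.6) against 206 in WT cells (91.1 CPM, 79.1–104), 2.90-fold lower in KO (2.16–3.95). Of the 6 members with at least 10 counts in the GFPhi pair, 4 were at least 4-fold lower in KO (Iapp, Gcg, Ppy and G6pc2), 0 were higher, and Chga and Ptprn were within 4-fold. Over all 15033 genes with as many counts, 17.8% were that much lower and 9.23% that much higher, and among the 4027 counted in at most 10% of cells 42% were lower and 20% higher. The members' median log2 ratio was -5.64, against -0.13 for all genes and -1.15 for those rare genes. A member that passed the count limit through 1 group alone had to differ, so the count and the median are descriptions. Of 3 members with enough counts in the GFPlo pair, 1 (Ppy) was at least 4-fold lower in KO, where 15.3% of 13882 genes were lower and 12.6% higher, and 39% lower and 26.4% higher among rare genes. The GFPlo median was -1.65 for the 3 members, -0.05 for all genes and -0.79 for rare genes. That member median is the value of Chga itself, which rested on 1 WT GFPlo cell as given above, and is a description.

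Leukocyte and connective tissue genes also differed between the GFPhi groups. The 24 leukocyte genes summed to 1404 CPM in KO GFPhi against 7515 in WT GFPhi cells. Of the 20 with at least 10 counts, 9 were at least 4-fold lower in KO, where 17.8% of all genes were that much lower. The 12 fibroblast and endothelial genes summed to 140 CPM in KO GFPhi against 195 CPM in WT GFPhi cells. The part of such cells in the sums of other genes was not tested. Without leukocyte-marked cells Iapp was at least 106-fold, Gcg at least 75.0-fold and Ppy at least 54.3-fold lower in KO GFPhi cells. No Iapp cell and no WT Gcg cell was leukocyte-marked. By date, Iapp was at least 14.9-fold lower in KO GFPhi on the first and at least 57.9-fold lower on the second. On the first date KO GFPhi was 9 cells in 3 units, with an exact binomial upper limit of 33.6% for 0 of 9. WT GFPhi had Iapp in 3 of 23 cells there, all with primer ls_6 and 93.4% of the counts in 1 cell. The first date therefore cannot tell the KO share of Iapp cells from the WT share. The member sum was 4.36-fold (3.32–5.80) lower in KO GFPhi on the first date and 6.51-fold (4.85–8.92) lower on the second. In GFPlo cells the sum was 3.89-fold lower in KO (2.62–5.97) on the first date, and on the second it was 29 counts in KO against 25 in WT cells, a ratio of 1.16 (0.658–2.07).

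Between gates, WT GFPhi cells had 2.29 times (1.96–2.69) the member sum of WT GFPlo cells, with 209 CPM in GFPhi against 91.1 CPM in GFPlo. KO GFPhi cells had 1.19 times (0.863–1.67) that of KO GFPlo cells, with 37.5 CPM in GFPhi against 31.4 CPM in GFPlo, and the difference between these ratios was not tested. In WT cells Iapp was at least 53.5-fold, Gcg 113-fold (20.1–4505), G6pc2 13.7-fold (3.56–117) and Ppy 4.36-fold (2.68–7.48) higher in GFPhi than in GFPlo cells. Ptprn went the other way, at 1.44 CPM in WT GFPhi against 20.8 in WT GFPlo cells. Of 7 members with 10 counts in this pair, 4 were at least 4-fold higher and 1 lower in GFPhi, where 16.5% of 15064 genes were higher and 12.3% lower, and among rare genes 37.7% were higher and 26.3% lower. Here too a member that passed the count limit through 1 group alone had to differ, so the count is a description.

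Within WT GFPhi cells, cells with Iapp, Ppy or G6pc2 had less Aire in the sum of their counts than the other cells. The 10 Iapp cells held Aire at 329 CPM against 587 CPM in the other 51, and each had at least 1 Aire count. Their median GFP intensity was 19708 arbitrary units against 22563 in the other cells. Of these Iapp cells 7 of 10 lay below the group median of 21656, against 23 of the other 51. Below the median of the first date lay 2 of 3 Iapp cells against 9 of 20 others. Below that of the second date lay 4 of 7 Iapp cells against 15 of 31 others. The Iapp cells were deeper, with a median total of 63543 counts against 30805 in the other cells. The 10 WT GFPhi cells with Ppy had 313 CPM of Aire against 589 in those without, and the 14 with Chga had 660 CPM against 496 in those without. For Chga the values were close on the first date, at 639 CPM in cells with it against 622 in those without, and 718 CPM in cells with it against 463 in those without on the second. The 7 cells with G6pc2 had 294 CPM of Aire against 573 in those without. Their median Aire count was 14 against 14.5, and their median GFP was higher, at 25895 against 21501.5. Median GFP in Ppy cells was 19708 against 22563 over both dates, and 20952.5 against 20945.5 on the second date. The primers shared within these sets were the same as above, and their part in these values was not tested.

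Genes that islet cells need to make and secrete hormones did not move as a block. Of 15 islet transcription factors, Pdx1, Nkx6-1, Neurog3 and Mafa, which define beta cells or their progenitors, had 0 counts in KO GFPhi and WT GFPhi cells, and 5 factors had at least 10 counts. By the 4-fold call 2 of these were lower and 1 was higher in KO, where 17.8% of all genes were called lower and 9.23% higher. Rfx6 was lower, at 0.996 CPM in KO GFPhi against 8.07 in WT GFPhi cells, and Isl1 was higher, at 39.8 CPM in KO against 4.61 in WT. Insm1, a zinc finger factor of endocrine cells, was counted in 45 of 48 KO GFPhi and 58 of 61 WT GFPhi cells, at 998 CPM in KO against 583 in WT. The list's median log2 ratio was 0.08.

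Of 19 secretion genes 8 had enough counts, of which 2 were called lower and 1 higher in KO GFPhi. Over all genes with enough counts 17.8% were called lower and 9.23% higher. Cpe, the carboxypeptidase that trims prohormones, was at 1.99 CPM in KO GFPhi against 98.9 in WT GFPhi cells, and the granule peptide gene Vgf at 0.332 CPM in KO against 28.8 in WT. Single cells held 95.9% of the WT Cpe and 93.0% of the WT Vgf counts. The convertase gene Pcsk2 was in 41 of 48 KO GFPhi and 53 of 61 WT GFPhi cells, whereas Pcsk1 had 1 count in a KO GFPhi cell and Slc2a2, Kcnj11 and Ucn3 had 0 counts in both groups. Of 7 other autoantigen genes with enough counts, 0 were lower and 1 was higher in KO GFPhi: Ptprn2, the IA-2beta gene, at 175 CPM in KO against 10.1 in WT. Gad1 and Gad2, which encode the glutamate decarboxylases, were within 4-fold.

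Other peptide hormones of gut and islet were mostly lower in KO GFPhi cells too. Of 7 gut and islet hormones with enough counts, 6 were at least 4-fold lower in KO GFPhi, with a median log2 ratio of -6.54, where 17.8% of all genes and 42% of rare genes were that much lower. Pyy was at 0.332 CPM in KO GFPhi against 489 in WT GFPhi cells, Nts (neurotensin) at 0.996 CPM in KO against 274 in WT and Cck (cholecystokinin) at 5.31 CPM in KO against 182 in WT. Gast (gastrin) had 0 counts in KO GFPhi against 60 in WT GFPhi cells, and Sct (secretin) was within 4-fold at 21.2 CPM in KO against 27.4 in WT. The sum of these hormones was 28.2 CPM in KO GFPhi against 1018 in WT GFPhi cells. Of 7 exocrine pancreas genes with enough counts, 6 were at least 4-fold lower and 1 at least 4-fold higher in KO GFPhi, beside the same 17.8% and 9.23% of all genes. Ctrb1, chymotrypsinogen, had 0 counts in KO GFPhi against 500 in WT GFPhi cells, and Zg16, a zymogen granule protein, was at 0.332 CPM in KO against 263 in WT. These sums too rested on few primers and cells, with ls_14 holding 87.9% of all Pyy counts. With primer ls_6 on the first date, Nts had 164, 16 and 768 counts in the cells of pools 4, 5 and 6. Cck was counted in 13 WT GFPhi cells, with 344 counts in that pool 6 cell and 174 in the ls_24 cell of pool 11. A gene that passed the count limit through 1 group alone had to differ here too, so the called counts and the median are descriptions.

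**Figure D4:**
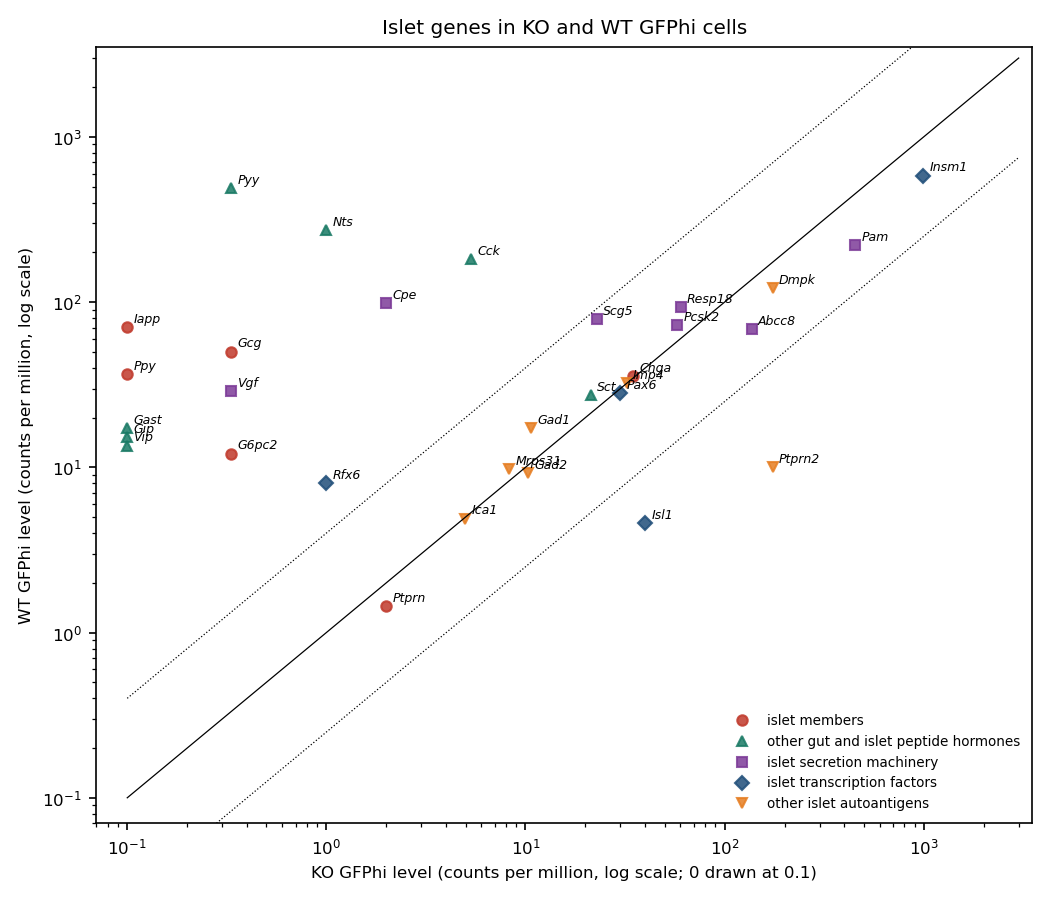
Level in KO GFPhi cells (x axis) against level in WT GFPhi cells (y axis), both in CPM on log scales, of islet members, other peptide hormones, secretion genes, transcription factors and autoantigens with at least 10 counts in the pair; a level of 0 is drawn at 0.1, the solid line marks equality and dotted lines a 4-fold difference. Iapp, Gcg, Ppy and most other hormones lie far above the upper dotted line, whereas Chga, Ptprn and most granule genes lie between the lines.

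Genes counted in the most similar sets of cells were found with the Jaccard index, the cells holding both genes divided by the cells holding either, over 9317 genes. For Iapp these were Gzmc (0.5, 6 of its 8 cells shared), Gpr50 (0.467) and 4 genes tied at 0.455, Crabp1, Lbp, Slc9a4 and Tff1. For Ppy they were Serpinb6e (0.5), whose 8 cells all had Ppy, Pyy (0.476) and Fcrl6 (0.421). For G6pc2 they were Cst11 (0.455), Retnlg (0.438) and Glis1 (0.429), and for Chga Zfp605 (0.338), Med9 (0.333) and Zfp488 (0.328). The cells behind these indices share primers, whose part was not tested, so they are given as descriptions. On the chromosome, neighbours of Iapp were counted in other cells too. Pyroxd1, 41693 bases away, was in 55 cells, 6 of them with Iapp, and Gys2, 118652 bases away, was in 5 cells, 3 of them with Iapp.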

How the data were processed

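The authors deposited raw counts (whole numbers, not normalized), with genes in rows and cells in columns. Their deposited metadata give each well's sort date and its GFP and MHCII flow cytometer intensity, in arbitrary units, per the file headers. The submitters' processing notes list the mouse build mm10 and, with no role or order, HTSeq, SAMtools 0.1.19, Picard 1.79, TopHat and TopHat2. Whether molecular identifiers were collapsed is not given in the sources used here. In 40 cells the summed counts were above the metadata's identifier total, and in 0 cells above the unique read total, so a count was read as a sequenced tag, and intervals, which cover counting error only, are too narrow for molecules if tags are copies.

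All 200 cells were used, with no filter and no doublet step. The table had 16848 genes at 0 in every cell, and 0 columns of values lacked a sample. Totals had a median of 29106.5 counts. Groups came from the labels, pools and primers from the labels' titles and primer field. Since no animal is named, counts were summed per group, no test was run, and replicate numbers only name cells. Ratios carry exact conditional binomial (Clopper-Pearson) 95% intervals. For log2 ratios 0.5 was added to both sums, and against a sum of 0 the fold uses a floor of 3 counts over the group. That floor leaves out the counting error of the other sum, so the exact 95% limit of the fold is given beside it. A gene was called at a fold of at least 4 with at least 10 counts in the pair. Thinned shares are expected values for 10000 or 20000 counts drawn without replacement.

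The members and 11 gene lists were chosen with earlier results of these data known. All members are described. Genes of like pattern are the 3 highest Jaccard indices, ties included, for members in at least 8 cells, among genes in 5 to 60 cells. Listed genes with a called fold in GFPhi cells were named, at most 4 per list, except 3 genes that are counted but not reported or drawn here, and others were named to show counts at 0 or within 4-fold. The alternatives by primer were chosen after seeing the data. TMM factors came from edgeR 4.0.16 in R 4.3.3. The rest ran in Python 3.11.15 with scipy 1.17.1, pandas 2.3.3, matplotlib 3.10.9 and numpy 2.4.6, and the count steps were tested on simulated data. Positions came from GENCODE M21, and promoters from RefSeq on GRCm38.p6.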

Additional observations from a re-analysis of the deposited data

Results flagged for a closer look

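Chga went in opposite directions between the gates of the 2 genotypes. It was higher in KO GFPhi than in KO GFPlo cells, at a log2 ratio of 0.95 (34.9 CPM in GFPhi against 17.9 in GFPlo), and lower in WT GFPhi than in WT GFPlo cells, at -0.66 (35.8 CPM in GFPhi against 56.6 in GFPlo). The WT log2 ratio lay 1.61 below the KO one, a value of -1.61. This difference was not tested, as each group is 1 sample, and 1 cell held 64.8% of the WT GFPlo counts.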

How the results depend on the processing

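The sum of the 10 members gave a log2 ratio of KO over WT of -2.47 in GFPhi and -1.53 in GFPlo cells, and of GFPhi over GFPlo of 1.19 in WT and 0.25 in KO cells. KO over WT in GFPhi cells stayed negative under every alternative run: it was -2.11 on the first sort date alone, -2.94 with ls primers alone, -2.97 without leukocyte-marked cells, -1.62 with only the deepest cell of each primer and date, and -5.94 without Chga. In GFPlo cells it was 0.21 on the second date alone, -1.08 without leukocyte-marked cells and -0.070 with the deepest cells. GFPhi over GFPlo in WT cells was 0.96 as the mean of per-cell levels, 0.93 and 2.82 on the first and second date alone, 1.88 with the deepest cells and 2.32 without Chga. In KO cells it was -0.22 as the mean of per-cell levels, 0.75 on the first date alone, -0.51 without leukocyte-marked cells and -2.29 without Chga. The cause of each of these shifts was not tested.

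Leaving out each of the 12 pools in turn moved the 4 ratios over ranges of -2.67 to -2.26, -2.0 to -1.31, 0.75 to 1.86 and -0.30 to 0.67. Leaving out each of the 30 primers moved them over -2.84 to -1.96, -2.02 to -0.97, 0.69 to 1.59 and -0.31 to 0.74. Primers ls_14, ls_6, ls_23 and umi_10 mattered most in GFPhi cells, at -1.96, -2.07, -2.81 and -2.84 without each. The difference of the shares of cells with any member, KO minus WT, was -20.5 percentage points in GFPhi cells, from -22.9 to -16.1 without a pool and from -25.3 to -14.4 without a primer. In GFPlo cells it was -10.9 points, from -16.7 to -6.43 without a pool and from -17.4 to -3.12 without a primer, and 10 with cells of 1 primer and date taken as 1 unit. In GFPhi cells the difference by units was -2.27 points, and on the first date alone -5.31.

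Among single members, Gcg in GFPhi cells turned to 1.68 on the second date alone and 1.52 without primer ls_6, over ranges of -8.24 to -3.01 without a pool and -8.04 to 1.52 without a primer. Chga in GFPhi cells, at -0.04, turned to 0.41 on the second date alone and 0.30 without primer ls_13. Ptprn in GFPhi cells, at 0.44, turned to -3.22 without pool 6 and -3.01 without primer ls_10. Chga in GFPlo cells turned to 0.25 with the deepest cells. Ptprn in GFPlo cells turned to 5.29 on the second date alone, 0.81 with the deepest cells, 0.54 without pool 4 and 5.40 without primer ls_8, over ranges of -6.14 to 0.54 without a pool and -6.20 to 5.40 without a primer. Of 457 values of single members under alternatives 432 had the main direction, as had 305 of 316 values of sums and shares. Most of these alternatives left out 1 pool or 1 primer, and leaving out a primer of a group outside a ratio cannot change it. The tallies are therefore a description and no measure of robustness. No paired analysis was possible because replicate numbers only name cells and no result comes from a test.

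Depth limits Ins1, Ins2, Sst and Slc30a8, with at most 12 counts each, and the share of cells with 1 to 3 counts of any gene. Intervals cover counting error within these cells and say nothing of animals. Primer, with 1 group each, cannot be separated from group.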
